A study of Homo sapiens with 9 samples.

Results

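The 4 early growth response genes, EGR1, EGR2, EGR3 and EGR4, were followed in ribosome footprint counts from Jurkat T cells before and after stimulation of the T cell receptor. The genes were chosen by their Ensembl IDs, which were ENSG00000120738.8 for EGR1, ENSG00000122877.16 for EGR2, ENSG00000179388.9 for EGR3 and ENSG00000135625.8 for EGR4. They are 4 of the 19569 gene IDs counted, and all 4 passed the filter on low counts that left 13920 IDs for testing. The 9 libraries came from the human T lymphoblast line Jurkat, clone E6-1. They formed 3 groups of 3 biological replicates: resting controls, labelled 0 h, and cultures 5 h or 12 h after activation. There were no unstimulated cultures at 5 h or 12 h, so stimulation and time in culture cannot be told apart. Activated cells were grown on plates coated with anti-CD3 antibody at 10 µg/mL, with anti-CD28 antibody added to the medium at 5 µg/mL, and resting cells received neither. Jurkat is a leukaemia line from 1 clone, so replicates are cultures of the same cells. Defining markers of T cells and of other cell types could not be matched to IDs with the tables used here, so the label was not checked against them.

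EGR proteins are zinc finger transcription factors that bind GC-rich DNA. EGR1 is a classical immediate early gene: receptor signalling through RAS and ERK switches it on within minutes, through serum response factor (SRF) bound at CArG boxes and through CREB bound at cyclic AMP response elements, without new protein synthesis. In T cells EGR1 has been linked to production of IL-2, while EGR2 and EGR3, which also depend on calcium signalling through NFAT, are known for restraining activated T cells and for thymocyte development. EGR4 is the least studied of the family in T cells.

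The stretches of DNA just upstream of the transcript starts are shown first. Whether they bear on the footprint levels was not tested. The sequences are from RefSeq on build GRCh38.p14, whose table held windows for 3 of the 4 genes: EGR1, EGR2 and EGR4. Each printed stretch covers the 250 bases before a start, 5′ to 3′ on the gene's strand, and excludes the transcript itself. Capitals mark CArG boxes, the CRE half-site TGACG and the EGR site GCGNGGGCG, each searched on both strands, so that a half-site on the other strand reads as its reverse complement. The EGR1 stretch lies at chr5:138465229-138465478 on the + strand. The EGR2 stretch belongs to the most downstream of its 3 listed starts and lies at chr10:62816367-62816616 on the - strand. The EGR4 stretch lies at chr2:73293549-73293798 on the - strand.

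EGR1 upstream: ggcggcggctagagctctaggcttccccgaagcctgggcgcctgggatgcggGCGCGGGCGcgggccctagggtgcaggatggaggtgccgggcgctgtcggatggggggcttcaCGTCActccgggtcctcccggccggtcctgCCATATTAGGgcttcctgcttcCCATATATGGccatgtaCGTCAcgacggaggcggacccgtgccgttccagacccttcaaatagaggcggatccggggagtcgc

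EGR2 upstream: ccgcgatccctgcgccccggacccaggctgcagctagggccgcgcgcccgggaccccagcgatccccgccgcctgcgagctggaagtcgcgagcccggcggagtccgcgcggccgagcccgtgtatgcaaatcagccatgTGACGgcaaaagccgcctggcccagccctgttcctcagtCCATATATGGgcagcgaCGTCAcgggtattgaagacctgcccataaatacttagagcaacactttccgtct

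EGR4 upstream: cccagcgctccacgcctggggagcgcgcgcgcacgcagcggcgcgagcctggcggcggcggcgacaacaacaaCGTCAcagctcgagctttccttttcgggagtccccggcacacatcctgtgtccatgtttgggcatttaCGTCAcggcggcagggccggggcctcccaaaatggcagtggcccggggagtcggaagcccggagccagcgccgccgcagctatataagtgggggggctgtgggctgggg

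EGR1 held 2 CArG boxes, CCATATTAGG at -105 to -96 and CCATATATGG at -83 to -74, counted from the start. EGR2 held 1, with the same letters as the second box of EGR1, CCATATATGG, at -71 to -62. The windows of the other 2 listed EGR2 starts, which are not printed, held no CArG box and no CRE half-site, and the EGR4 window held no CArG box. A CArG box was present in 1.16% of all 34943 windows of 250 bases in the table, which include several starts for some genes, and 2 or more boxes in 0.03%. Each of the 3 printed stretches held 2 CRE half-sites, so that 3 of the 5 windows of these genes had them, against 2 or more in 4.73% of all windows and at least 1 in 21.18%. In EGR1 they lay at -135 to -131 and -66 to -62, in EGR2 at -110 to -106 and -54 to -50, and in EGR4 at -177 to -173 and -109 to -105. A CArG box and a CRE half-site occurred together in 0.19% of all windows. EGR1 also held 1 EGR site at -198 to -190, a motif present in 8.39% of windows. The full palindrome TGACGTCA, present in 1.63% of windows, and the AP-1 site TGANTCA, present in 6.59%, had no match in any of the 5 windows of the 3 genes. The NFAT core GGAAAA, present in 21.21% of windows, matched once, upstream of the second EGR2 start. The motifs were picked with these sequences in view, and a match describes letters only, not binding.

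**Figure D1:**
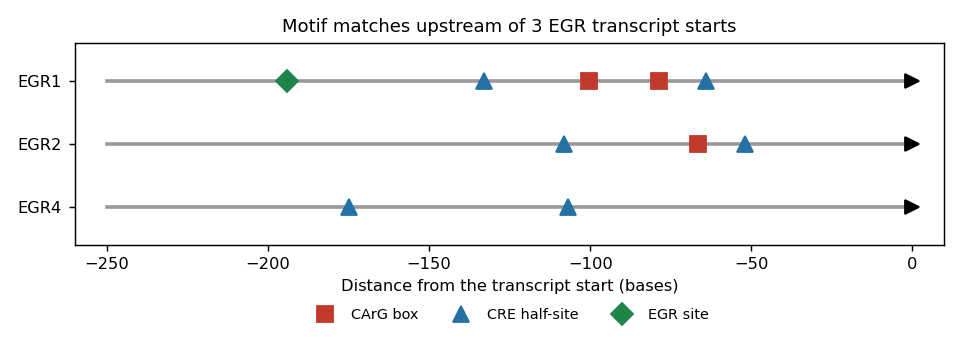
Positions of motif matches (centres, in bases from the transcript start at 0) in the 250 bases upstream of EGR1, the most downstream EGR2 start and EGR4. Squares are CArG boxes, triangles CRE half-sites and the diamond an EGR site. EGR1 has 2 CArG boxes and EGR2 has 1 between half-sites, and EGR4 has 2 half-sites only.

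Levels are given in CPM, footprint counts relative to the size of the library after TMM scaling. Library totals ran from 4343515 to 18506509 counts, the lowest being 12 h replicate 2 and the highest 5 h replicate 3. A level reflects both the mRNA present and how heavily it is translated, and in a bulk culture a larger share of responding cells and a stronger response per cell cannot be told apart. Counts were not divided by coding length, so levels are compared between groups for 1 gene and not between genes.

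EGR1 had few footprints at rest and many after activation. In the resting libraries it had 41, 52 and 60 counts, or 4.77, 5.72 and 6.22 CPM. At 5 h it had 5237, 4842 and 8685 counts, or 528, 363 and 472 CPM. At 12 h it had 1636, 631 and 1160 counts, or 140, 138 and 156 CPM. The 3 groups did not overlap, with 5 h highest, 12 h between and rest lowest. The mean rose from 5.57 ± 0.732 CPM at rest to 454 ± 83.8 CPM at 5 h (SD, n = 3), an 81.6-fold difference, and stood at 145 ± 9.78 CPM at 12 h, 26.0-fold above rest. At 5 h EGR1 took 0.0552%, 0.0372% and 0.0469% of all footprints in the 3 libraries.

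EGR2 started from almost no footprints. It had 4, 7 and 1 counts at rest, which corresponded to 0.466, 0.769 and 0.104 CPM. At 5 h it had 270, 271 and 451 counts, or 27.2, 20.3 and 24.5 CPM. At 12 h it had 82, 28 and 31 counts, or 7.02, 6.13 and 4.17 CPM. Again the groups did not overlap, and the order was that of EGR1. The mean went from 0.446 ± 0.333 CPM at rest to 24.0 ± 3.48 CPM at 5 h (SD, n = 3), which was 53.8-fold higher, and to 5.77 ± 1.46 CPM at 12 h, 12.9-fold above rest. Only 12 counts in all lay behind the resting mean. The lowest 5 h library was 26.4-fold above the highest resting one.

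EGR3 rose at 5 h, and its 12 h libraries spread widely. It had 7, 8 and 20 counts at rest, or 0.815, 0.879 and 2.07 CPM. The 5 h libraries had 184, 248 and 256 counts, or 18.5, 18.6 and 13.9 CPM. The 12 h libraries had 13, 11 and 43 counts, or 1.11, 2.41 and 5.78 CPM. All 5 h libraries lay above all others, while 12 h replicate 1 lay below resting replicate 3. The resting mean was 1.26 ± 0.708 CPM, the 5 h mean 17.0 ± 2.70 CPM and the 12 h mean 3.10 ± 2.41 CPM (SD, n = 3). The exact 95% Poisson interval of 12 h replicate 1 ran from 0.592 to 1.90 CPM. That of 12 h replicate 3 ran from 4.18 to 7.79 CPM, with no overlap between them. Such intervals cover counting error at most, and can be too narrow for that, since amplified fragments are not independent molecules. Over IDs with enough counts, the 9 pairs of libraries within a group also spread beyond Poisson error (chi-squared per degree of freedom 3.73 to 11.7).

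EGR4 had few counts at rest and at 12 h, and more at 5 h. It had 5, 6 and 8 counts at rest, or 0.582, 0.659 and 0.829 CPM. It reached 95, 66 and 121 counts at 5 h, or 9.58, 4.95 and 6.57 CPM. At 12 h it had 28, 10 and 12 counts, or 2.40, 2.19 and 1.61 CPM. The groups did not overlap, although Poisson intervals of 12 h and resting libraries did: that of 12 h replicate 3 ran from 0.834 to 2.82 CPM and that of resting replicate 3 from 0.358 to 1.63 CPM. The resting mean was 0.690 ± 0.126 CPM, the 5 h mean 7.03 ± 2.35 CPM and the 12 h mean 2.07 ± 0.406 CPM (SD, n = 3).

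**Figure D2:**
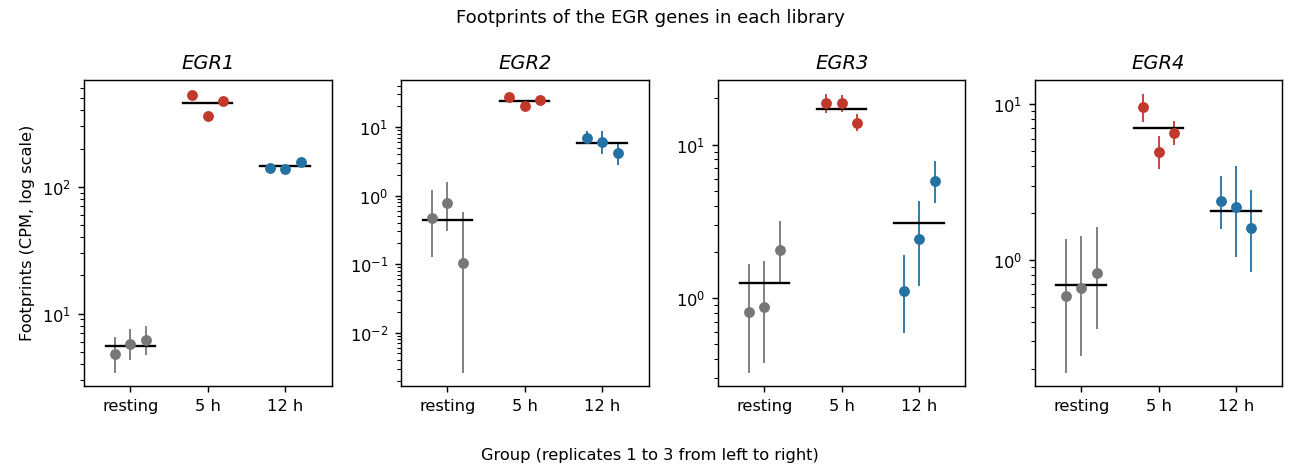
Footprint level (CPM, log scale, each panel with its own range) of each EGR gene in the 9 libraries, with replicates 1 to 3 from left to right in each group. Points are libraries, vertical lines their exact 95% Poisson intervals and black bars group means. Every gene is highest at 5 h, and EGR3 is the gene whose 12 h and resting libraries overlap.

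The first comparison, 5 h against rest, asks how the family responds early. All 4 EGR genes rose, against a background of 16% of tested IDs called higher. The log2 fold changes were 6.34 ± 0.16 (SE) for EGR1, 5.73 ± 0.38 for EGR2, 3.73 ± 0.44 for EGR3 and 3.32 ± 0.48 for EGR4. The adjusted p-values (edgeR, quasi-likelihood test, Benjamini-Hochberg over all tested IDs) were 5.29e-19 for EGR1, 2.71e-11 for EGR2, 5.06e-07 for EGR3 and 8.97e-06 for EGR4. For each of the 4 genes every 5 h library lay above every resting library, a pattern found in 23.1% of tested IDs. Of 13920 IDs tested, 34 had a higher fitted change than EGR1, 52 a higher one than EGR2, 125 than EGR3 and 169 than EGR4. The median log2 fold change was 4.73 over the 4 genes and 0.07 over all tested IDs.

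Leaving out 1 library at a time moved the EGR2 value over the widest range, from 5.24 without resting replicate 3 to 6.38 without resting replicate 2. The EGR3 value was 4.30 without resting replicate 3. The direction and call of the 4 genes at 5 h held in all these fits.

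The second comparison, 12 h against rest, asks how much of the response persists. EGR1, EGR2 and EGR4 were still higher than at rest, 3 of the 4 genes against 15.8% of tested IDs called higher. The log2 fold changes were 4.69 ± 0.15 (SE) for EGR1, 3.69 ± 0.41 for EGR2 and 1.57 ± 0.51 for EGR4, and the edgeR adjusted p-values were 1.70e-16, 1.94e-07 and 0.0191. EGR3 differed by 1.24 ± 0.49 with an adjusted p of 0.0516 by the same edgeR test, just outside the threshold of 0.05. Every 12 h library lay above every resting one for EGR1, EGR2 and EGR4, against 22.1% of tested IDs. Among the tested IDs, 44 had a higher fitted change than EGR1, 95 a higher one than EGR2, 1146 than EGR3 and 736 than EGR4. The median log2 fold change over the 4 genes was 2.63, against 0.04 over all tested IDs.

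The calls of EGR3 and EGR4 at 12 h depended on single libraries and settings. For EGR3 the log2 fold change fell to 0.31 without 12 h replicate 3 (adjusted p = 0.698 by edgeR). It was 1.81 without resting replicate 3 and 1.73 without 12 h replicate 1, and both of those fits passed the edgeR test, with adjusted p of 0.0183 and 0.00360. EGR3 also passed with DESeq2 (adjusted p = 0.0402), and in edgeR with RLE scaling (0.0473), with no low-count filter (0.0258) and with at least 50 counts in 3 libraries (0.0409). EGR4 missed the threshold without resting replicate 1 (log2 fold change 1.45, adjusted p = 0.0551 by edgeR) and without 12 h replicate 1 (1.41, adjusted p = 0.0671). It also missed the threshold when only the 6 libraries compared were fitted (1.59, adjusted p = 0.0715 by edgeR). For EGR2 the value ran from 3.19 without resting replicate 3 to 4.33 without resting replicate 2, past the threshold in both.

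The third comparison sets 12 h directly against 5 h and asks how the response moved on. All 4 EGR genes fell, against 13.5% of tested IDs called lower. EGR1 changed by -1.65 ± 0.11 (log2, SE), EGR2 by -2.04 ± 0.27, EGR3 by -2.48 ± 0.41 and EGR4 by -1.75 ± 0.44. The edgeR adjusted p-values were 1.72e-10 for EGR1, 4.32e-06 for EGR2, 6.60e-05 for EGR3 and 0.00418 for EGR4. In terms of mean CPM the falls were 3.14-fold, 4.16-fold, 5.49-fold and 3.40-fold in the order EGR1 to EGR4. For each of the 4 genes the 12 h libraries all lay below the 5 h ones, a pattern seen in 20.8% of tested IDs. Without 12 h replicate 3 the EGR3 value was -3.42. The median change over the 4 genes was -1.90, against -0.05 over all tested IDs. Among the 2230 IDs called higher at 5 h, which include the 4 genes and share the 5 h libraries with this comparison, the median was -0.28, with quartiles of -0.69 and 0.05. These IDs were not matched to the EGR genes for the size of the rise at 5 h.

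**Figure D3:**
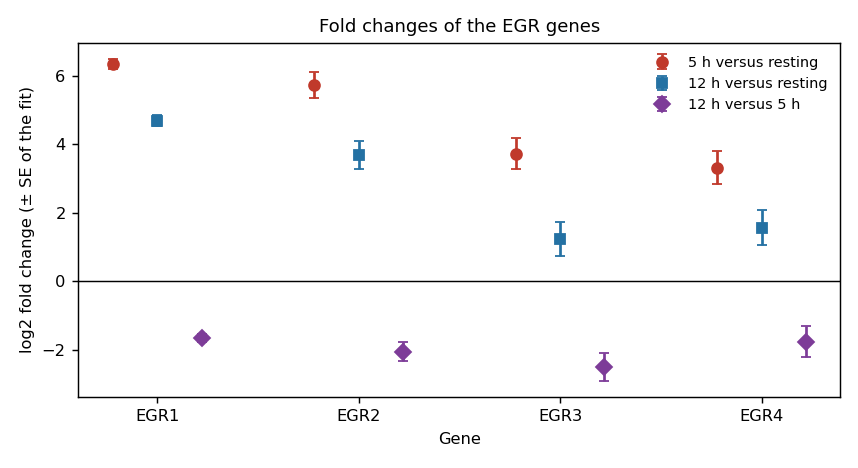
Fitted log2 fold change (vertical axis, with the SE of the fit as bars) of each EGR gene in the 3 comparisons. Both comparisons with resting cells lie above 0 and the comparison of 12 h with 5 h below 0 for all 4 genes, and the EGR3 value of 1.24 at 12 h did not pass the test.

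The 3 calls together, higher at 5 h, higher at 12 h and lower at 12 h than at 5 h, held for 3 of the 4 genes and for 1.71% of tested IDs, 238 of 13920. EGR3 lacked the second of these calls. Comparisons with the same resting or 5 h libraries are not independent of each other.

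**Figure D4:**
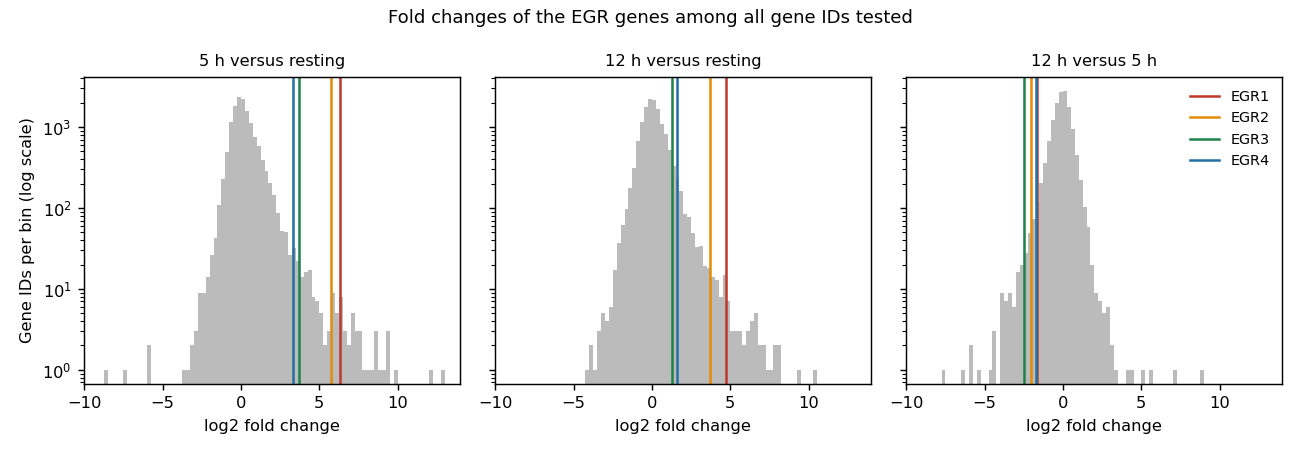
Number of gene IDs (log scale) in bins of log2 fold change for the 3 comparisons, with the EGR genes as vertical lines. At 5 h the 4 genes lie between 3.32 and 6.34, far to the right of the median of 0.07, and at 12 h against 5 h they lie between -2.48 and -1.65.

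The part of the 5 h rise still present at 12 h was computed for each gene as the 12 h mean minus the resting mean, over the 5 h mean minus the resting mean. EGR1 had kept 31.0% of its rise, with a range of 28.2% to 33.8% as each library was left out. EGR2 had kept 22.6%, from 19.96% to 26.0%. EGR4 had kept 21.7%, from 18.6% to 27.2%. EGR3 had kept 11.7%, with the widest relative range, from 3.2% without 12 h replicate 3 to 18.0% without 12 h replicate 1. The range of EGR1 did not overlap those of the others, and the range of EGR3 lay below them. Such ranges come from fits that share most libraries and are not confidence intervals, so they do not establish an order of the genes. These percentages are descriptions and were not tested.

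The family's summed level and its mix were then compared. At rest the 4 genes summed to 7.96 ± 1.29 CPM, at 5 h to 502 ± 89.1 CPM and at 12 h to 156 ± 10.3 CPM (SD, n = 3). It was 63.1-fold higher at 5 h and 19.6-fold higher at 12 h than at rest. No library overlapped between any 2 groups, and a two-sided exact permutation test gave p = 0.1 in each of the 3 comparisons, the smallest that 3 against 3 allows, and 0.1 after adjustment over the 3. EGR1 supplied most of the family's counts. Its share of the summed counts was 70.2% ± 2.43 in resting libraries, 90.3% ± 1.05 in 5 h libraries and 93.0% ± 0.156 in 12 h libraries (SD, n = 3). The shares are of counts not divided by length, so their size and the size of their movement between groups both depend on coding length.

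EGR3 and EGR4 took smaller shares after activation. The EGR4 share went from 8.66% ± 0.397 at rest to 1.38% ± 0.231 at 5 h and 1.34% ± 0.334 at 12 h. The EGR3 share went from 15.2% ± 6.30 at rest to 3.48% ± 0.975 at 5 h and 1.94% ± 1.38 at 12 h. No resting library overlapped with an activated one in either share, with an exact permutation p of 0.1 and an adjusted p of 0.15 over the 12 comparisons of shares. The EGR2 share was 5.91% ± 4.34 at rest, 4.80% ± 0.171 at 5 h and 3.76% ± 1.13 at 12 h. Its resting libraries, at 7.02%, 9.59% and 1.12%, enclosed all the activated ones, and the exact permutation p was 0.7 for 5 h and 0.5 for 12 h against rest.

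The ratio of each gene to EGR1 within a library removes the scaling between libraries, and its change over time does not depend on coding length. With 0.5 added to each count, the log2 ratio of EGR4 to EGR1 was -2.92 ± 0.09 in resting libraries, -6.04 ± 0.23 in 5 h libraries and -6.10 ± 0.38 in 12 h libraries (SD, n = 3). Relative to EGR1, EGR4 thus differed by -3.12 (log2) at 5 h from rest, with no overlap between libraries, while 12 h and 5 h overlapped and differed by -0.06. The ratio of EGR3 to EGR1 was -2.22 ± 0.57 at rest, -4.73 ± 0.41 at 5 h and -5.81 ± 1.09 at 12 h, and the resting libraries again lay above all activated ones. For EGR3 the 12 h and 5 h libraries overlapped and differed by -1.08 (exact permutation p = 0.3, adjusted p = 0.45). The exact permutation p was 0.1 for both genes at both times against rest, and 0.18 after adjustment over the 9 comparisons of ratios. The ratio of EGR2 to EGR1 was -3.78 ± 1.36 at rest, -4.23 ± 0.07 at 5 h and -4.66 ± 0.48 at 12 h. A difference between EGR2 and EGR1 in the size of the rise at 5 h was not resolved (log2 difference -0.45, exact permutation p = 0.6), and the resting libraries, with 4, 7 and 1 counts of EGR2, had the wider spread. Between 5 h and 12 h the EGR2 ratio differed by -0.43 with no overlap between the libraries (exact permutation p = 0.1, adjusted p = 0.18). The size rested on single libraries, at -0.16 without 12 h replicate 3 and -0.60 without 12 h replicate 1.

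**Figure D5:**
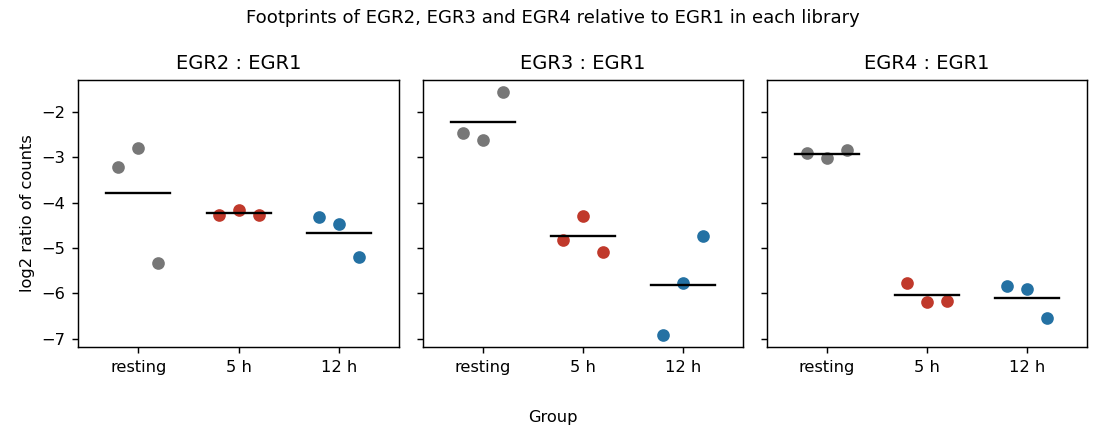
Log2 ratio of the counts of EGR2, EGR3 and EGR4 to those of EGR1 in each library (points) with group means (bars), 0.5 being added to each count. The resting libraries of EGR3 and EGR4 lie above all activated ones, and those of EGR2, from -5.33 to -2.81, enclose them.

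The order of the libraries within a group differed between the genes. Resting replicate 3 had the lowest EGR2 level at rest, 0.104 CPM, and the highest EGR3 level, 2.07 CPM. Of the 12 h libraries, replicate 3 had the lowest EGR2 and EGR4 levels, 4.17 and 1.61 CPM, and the highest EGR1 and EGR3 levels, 156 and 5.78 CPM. At 5 h, replicate 3 had the lowest EGR3 level, 13.9 CPM, and replicate 1 the highest levels of EGR1, EGR2 and EGR4. Several of these orders rest on few counts, from 1 to 7 for resting EGR2 and from 10 to 28 for EGR4 at 12 h. In most of them the Poisson interval of the library named overlapped that of another library of its group. That held for EGR2 and EGR3 at rest, for every EGR gene at 12 h and for EGR2 and EGR4 at 5 h. For EGR1 and EGR3 at 5 h the interval of the library named overlapped no other.

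The IDs whose course over the 9 libraries was most like that of an EGR gene were found by Pearson correlation of log2 CPM, with a prior count of 2, among IDs averaging at least 4 CPM and the EGR genes themselves, whatever their level. Across the 9 libraries, which form 3 groups, the 5 closest IDs correlated at 0.994 to 0.996 with EGR1, at 0.988 to 0.992 with EGR2, at 0.963 to 0.985 with EGR3 and at 0.982 to 0.987 with EGR4. These lists held 20 different IDs, none of them shared and none of them another EGR gene. EGR2, EGR3 and EGR4 had only 12, 35 and 19 counts in the resting libraries together, and counting error lowers such correlations. The absence of EGR genes from the lists therefore does not show that their courses differ. The closest to EGR1 was ENSG00000143185.4, which went from 0.0388 ± 0.0672 CPM at rest to 359 ± 36.1 CPM at 5 h and 60.7 ± 2.94 CPM at 12 h (SD, n = 3). The closest to EGR3 was ENSG00000124201.15, at 36.0 ± 5.79, 56.9 ± 3.68 and 40.0 ± 6.14 CPM in the same order. The measure thus took the shape of the course and not its size. The sources used here do not pair other IDs with gene names, so these IDs are not named.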

How the data were processed

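Footprint counts of 9 Jurkat libraries were analysed. The deposited count table holds whole-number counts per Ensembl ID, with no normalization by the authors. A second table deposited by the authors holds log2 values for 11572 IDs; checked against the counts, they equal log2 of the count over 1 size factor per library, plus 1, within 5.03e-09. It lists 3 of the 4 EGR genes, not EGR4. Build GRCh38.p13, RSEM, Bowtie, bedtools, DESeq2 and cutadapt 3.2 are listed, per the submitters' processing notes, without their roles. The labels and headers do not say how fragments matching several genes were treated. Exchange of footprints between the similar zinc finger regions of the EGR genes was not tested.

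The counts of all 9 libraries were fitted together in edgeR 4.0.16 (R 4.3.3), with filterByExpr, TMM scaling and the quasi-likelihood test. Adjustment (Benjamini-Hochberg) was over all 13920 IDs tested, with a threshold of 0.05. SEs are those implied by the test. The procedure was tested on simulated data. Single values per library were compared by two-sided exact permutation tests. P-values measure only the spread between these cultures, and rises and falls are relative to the scaled library. Alternatives were DESeq2 1.42.0, limma 3.58.1 on the authors' log2 table, other scalings and filters, a replicate block and libraries left out in turn.

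The genes named were the 4 EGR genes and, for likeness, the closest IDs, of which 2 are printed. The members, lists and tests were chosen with earlier results of these data known. The reference table paired none of its 59792 genes with Ensembl IDs, so 6 lists of related genes (72 genes) and 26 cell type markers were not analysed here. Upstream windows came from RefSeq (GRCh38.p14).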

Additional observations from a re-analysis of the deposited data

Results flagged for a closer look

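All 4 genes were lower at 12 h than at 5 h by the direct test, against 13.5% of tested IDs called lower. The log2 difference was -1.65 for EGR1, -2.04 for EGR2, -2.48 for EGR3 and -1.75 for EGR4, each past the adjusted threshold in edgeR.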

How the results depend on the processing

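For 5 h versus resting and 12 h versus 5 h, every EGR gene tested kept its direction and call under all alternatives run; the largest adjusted p among them was 0.0427, for EGR4 at 12 h versus 5 h. EGR1 and EGR2 also kept both at 12 h versus resting. The EGR3 difference at 12 h versus resting passed the threshold with DESeq2 (1.28), RLE scaling (1.26), no low-count filter (1.22) and at least 50 counts in 3 libraries (1.32), and ran from 0.31 to 1.81 as libraries were left out. The EGR4 value missed it with only the 6 libraries compared (1.59), and ran from 1.41 to 1.71 as libraries were left out. The cause was not tested. The count of members called at 12 h versus resting ran from 2 to 4, with only 3 members tested by limma. In the main fit 15.8% of tested IDs were called higher in this comparison. Over all IDs the calls in either direction ran from 4021 to 4890 across the settings.

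Leaving out libraries turned the sign of small differences in the mix. The EGR2 share at 5 h against rest ran from -3.50 to 0.73 percentage points and its log2 ratio to EGR1 from -1.23 to 0.037, positive without resting replicate 2. The EGR4 share at 12 h against 5 h ran from -0.16 to 0.15 and its log2 ratio from -0.18 to 0.16, positive without 5 h replicate 1 (0.098 and 0.08) or 12 h replicate 3. The summed level at 12 h exceeded rest by 157 CPM with no scaling beyond the library total, against 148. The ratios, with 0.5 or 1 added, were added after seeing the data. Shares per coding length and the lists of related genes were not run, for want of lengths and of names for the IDs.

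Deviations from the group means correlated at -0.06 to 0.09 between same-numbered libraries and at -0.11 to 0.09 between others. Such correlations cannot show whether same-numbered cultures were handled together. With the replicate number as a block, 4644, 4689 and 3373 IDs were called at 5 h versus resting, 12 h versus resting and 12 h versus 5 h, against 4797, 4887 and 3497, and no call of an EGR gene changed. Depth limits the resting values of EGR2, EGR3 and EGR4, which rest on 12, 35 and 19 counts.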
